A study of Mus musculus with 9 samples.

Results

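The genes described here encode the proteasome, its activators, its assembly factors and its inhibitor. They were taken by symbol (Psma, Psmb, Psmc, Psmd, Psme, Psmf or Psmg followed by a number), with each gene read by the probe set that had the highest mean over the 9 arrays. The rule found 47 of 18194 genes measured, on 100 of the 34958 probe sets that carry a single gene symbol. Of the 47, 46 lay over the brightness threshold of 6.83 (log2) that 9097 genes passed. The exception was Psmb11, a catalytic subunit restricted to the thymic cortex, which read between 1.47 and 5.69. Psme2, an activator subunit, shares its probe set with a related gene symbol and is not analysed here.

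RNA came from stromal cells of the bone marrow, taken from FVB/NJ mice and sorted as negative for the leukocyte antigen CD45.1 and the erythroid antigen Ter119, and was hybridised to Affymetrix mouse arrays. The 3 groups of 3 arrays each were wild type mice (WT), leukemic recipients in the early phase (E), with 1 to 5% leukemic cells in the marrow, and leukemic recipients in the medium phase (M), with 5 to 50%. All mice were FVB/NJ, and the labels call the arrays of a group biological replicates. The leukemia used, the age of the mice and whether animals were pooled are not given in the sources used here, and the latent and late phases of the disease are not analysed here.

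The proteasome degrades proteins that have been marked with ubiquitin. Its core is a barrel of stacked rings, in which the outer alpha rings hold the gate and the inner beta rings hold the proteolytic sites. A regulatory cap recognises ubiquitin chains, removes them and threads the protein into the barrel with a ring of ATPases. In cells exposed to interferon, and constantly in many blood cells, the catalytic subunits encoded by Psmb5, Psmb6 and Psmb7 are replaced by those of Psmb8, Psmb9 and Psmb10, which form the immunoproteasome and favour peptides suited to presentation on MHC class I.

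The M arrays stood apart from the other 6 in ways that reach beyond the proteasome. Over all 9097 genes tested, the root mean square difference between an M array and an E or WT array was 1.10 to 1.42 (log2), against 0.215 to 0.442 between M arrays, 0.224 to 0.242 between E arrays and 0.242 to 0.25 between WT arrays. The added poly-A spike-in RNAs read 1.00 higher in M than in WT and the array median 0.63 higher, so values scaled on either one give lower levels for every gene in M. All values below are on the scale the authors deposited unless another is named. The Gapdh probe sets, whose signal at the 3′ end minus that at the 5′ end is a sign of RNA quality, gave -0.02 to 0.20 in WT, 0.06 to 0.08 in E, and 0.43, 0.34 and 0.07 in M 1, M 2 and M 3. The same difference for Actb was 0.99 to 1.15 in WT, 0.96 to 1.16 in E, and 1.35, 1.02 and 1.13 in these M arrays. Marker lists were read over all their genes on the array, with no brightness filter, as the sum of linear signals in units of 1000. All 10 mesenchymal stroma markers, such as Cxcl12 and Lepr, had M arrays wholly above WT, with a sum of 4.81 to 5.42 in WT, 5.68 to 6.18 in E and 72.5 to 87.0 in M. So had all 10 granulocyte markers, with a sum of 108 to 126 in M and 7.98 to 8.82 in WT, and all 6 pan-leukocyte markers, with 8.21 to 14.9 in M and 4.15 to 4.64 in WT. The same held for 5 of 7 B lineage markers (sum 1.86 to 3.79 in M and 0.289 to 0.391 in WT) and 8 of 10 macrophage and antigen presentation markers (sum 2.36 to 3.13 in M and 1.49 to 1.82 in WT). Among the 9097 genes tested 26.5% had M arrays wholly above WT and 45.5% wholly below. The shares without the brightness filter were not counted. Of 9 cell cycle genes 8 fell, and their sum was 54.3 to 80.5 in M and 92.3 to 101 in WT. Of 8 erythroid markers 3 had M arrays wholly below WT and 1 wholly above, with a sum of 37.8 to 73.5 in M and 65.1 to 73.9 in WT. The mean of these 8 (log2) was 11.43, 11.68 and 10.72 in M 1, M 2 and M 3. E also differed from WT in some lists. Its sums were 12.4 to 13.5 for granulocyte, 2.97 to 3.17 for pan-leukocyte and 0.587 to 0.72 for B lineage markers. They were 1.01 to 1.27 for macrophage and antigen presentation, 90.4 to 92.9 for cell cycle and 58.2 to 62.5 for erythroid markers. No marker of these lists was at 0 in any array. The part of these shifts in the proteasome values was not tested, and in sorted populations fewer cells of a type and less RNA per cell cannot be told apart.

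In the medium phase the proteasome genes fell nearly as a block. Against WT, 43 of the 46 tested members fell and 1 rose at an adjusted p under 0.05 (limma, Benjamini-Hochberg over 9097 genes), and 2 did not pass. Among all 9097 genes, 43.5% fell and 25.3% rose by the same rule. The median change of the 46 members was -0.44 (log2), beside -0.19 over all genes tested. The median over all genes was 0.11 when genes under the brightness threshold were kept in, while all 46 members lie over that threshold in the mean of every group. The 3 M arrays lay below all 3 WT arrays for 42 members and above them for 0, where 45.5% of all genes had M wholly below and 26.5% wholly above WT. Members are bright on these arrays, and bright genes fell more often: among the 4549 brightest genes 60.8% fell and the median change was -0.34, against 43 of 44 members there and a median of -0.46. Psmb8 and Psma8, neither of which fell, are too dim to be among these genes.

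**Figure D1:**
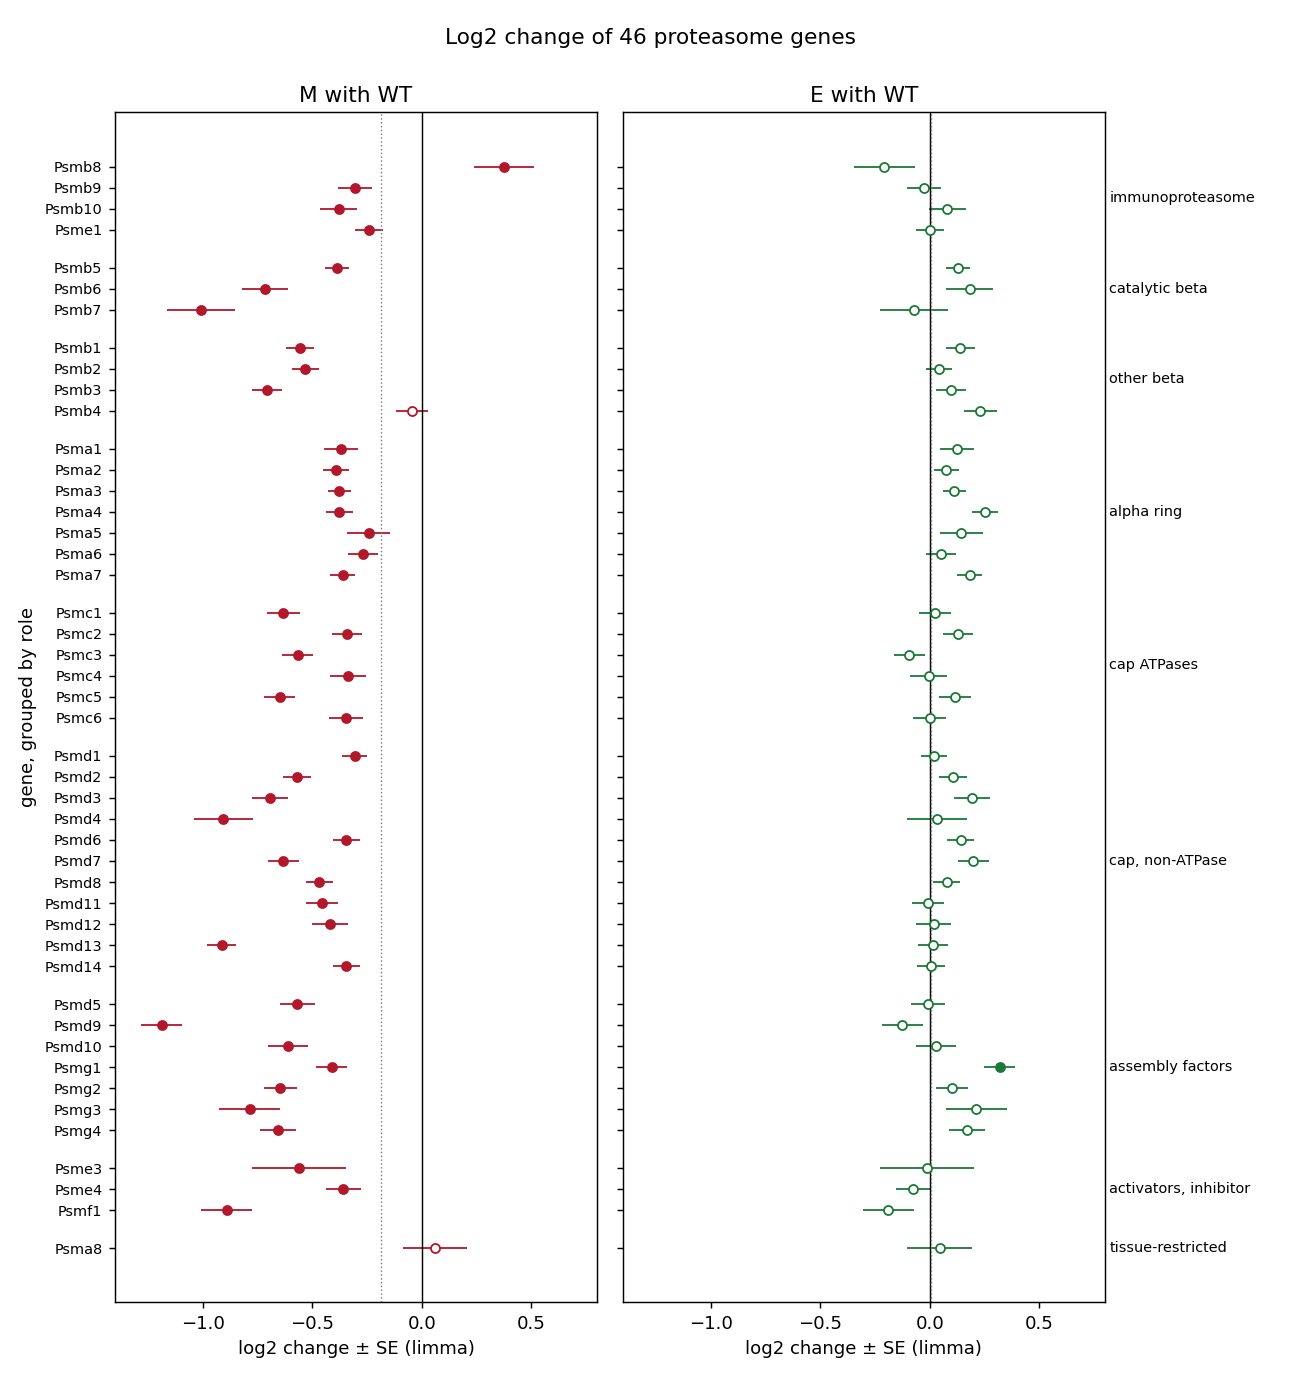
Log2 change with its SE (limma) for the 46 tested genes in rows by role, in M with WT on the left and E with WT on the right; filled points passed an adjusted p under 0.05 and the dotted line is the median over all 9097 genes. In M with WT the points run from -1.19 (Psmd9) to 0.38 (Psmb8), and in E with WT they lie close to 0 with only Psmg1 filled.

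The constitutive genes, all members outside the immunoproteasome, made up most of the members that fell. Of 42 tested, 40 fell in M against WT, with a median log2 change of -0.50. In fold terms the 40 stood between 0.439 and 0.845 of their WT level, with a median of 0.686. The exceptions were Psmb4, a beta ring subunit without a proteolytic site, at -0.05 (adjusted p = 0.600 in limma), and Psma8, an alpha subunit restricted to the testis, at 0.06 (adjusted p = 0.736). For Psmb4 this holds on the probe set used, while its other, nearly as bright, changed by -0.44. The 4 immunoproteasome genes had a median of -0.27, with 3 lower and 1 higher. The 3 lower ones, Psmb9, Psmb10 and Psme1, changed by -0.31, -0.38 and -0.24. Changes of that size were also seen in the constitutive alpha ring, which ranged from -0.39 to -0.24.

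The 3 catalytic subunits of the constitutive core differed in the size of their fall. Psmb7, which carries the trypsin-like site, read 11.05, 10.88 and 11.48 in WT, 11.06, 11.31 and 10.82 in E, and 10.03, 10.15 and 10.21 in M. Every M array lay below every other array, and the change in M against WT was -1.01 ± 0.16 (SE, adjusted p = 1.61e-04 in limma). Psmb6, which carries the caspase-like site, read 12.72, 12.52 and 12.76 in WT, 12.79, 12.91 and 12.85 in E, and 11.71, 11.98 and 12.16 in M. Its E arrays were all above its WT arrays, its M arrays all below them, and M differed from WT by -0.72 ± 0.11 (adjusted p = 1.31e-04). For Psmb5, which carries the chymotrypsin-like site and is the main target of proteasome inhibitor drugs, the arrays read 12.82, 12.80 and 12.87 in WT, 12.97, 12.98 and 12.92 in E, and 12.45, 12.49 and 12.38 in M. Its order was the same, with a smaller step of -0.39 ± 0.06 in M against WT (adjusted p = 1.04e-04).

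Of the immunoproteasome genes, Psmb8 was higher in M on the deposited scale and the other 3 fell. Psmb8, which replaces Psmb5, read 9.67, 9.27 and 9.51 in WT, 9.29, 9.42 and 9.13 in E, and 9.95, 9.61 and 10.02 in M. Its M arrays lay above all E arrays and overlapped the WT arrays, where WT 1 at 9.67 exceeded M 2 at 9.61. On the deposited scale Psmb8 was the only member called higher in M, by 0.38 ± 0.14 against WT (adjusted p = 0.0301 in limma) and by 0.58 ± 0.14 against E (adjusted p = 0.00287), and it turned negative, at -0.25 against WT, when arrays were centred on their medians and at -0.63 when they were scaled on spike-ins. The call against WT was lost without WT 2, WT 3, M 1 or M 3, with adjusted p between 0.0620 and 0.127, and with quantile normalization (adjusted p = 0.105).

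Psmb9, which replaces Psmb6, read 10.05, 9.94 and 10.07 in WT, 9.99, 10.04 and 9.95 in E, and 9.69, 9.70 and 9.74 in M. Psmb10, the replacement of Psmb7, read 10.32, 10.34 and 10.29 in WT, 10.44, 10.45 and 10.30 in E, and 10.08, 9.86 and 9.86 in M. Psme1, a subunit of the activator ring that opens the core without ubiquitin, read 12.02, 12.05 and 11.92 in WT, 12.00, 12.05 and 11.94 in E, and 11.76, 11.78 and 11.73 in M. For these 3 genes WT and E overlapped and M lay below both. M with WT gave -0.31 ± 0.08 for Psmb9 (adjusted p = 0.00428 in limma), -0.38 ± 0.09 for Psmb10 (adjusted p = 0.00231) and -0.24 ± 0.06 for Psme1 (adjusted p = 0.00511). The call of Psme1 was lost with quantile normalization (adjusted p = 0.106).

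**Figure D2:**
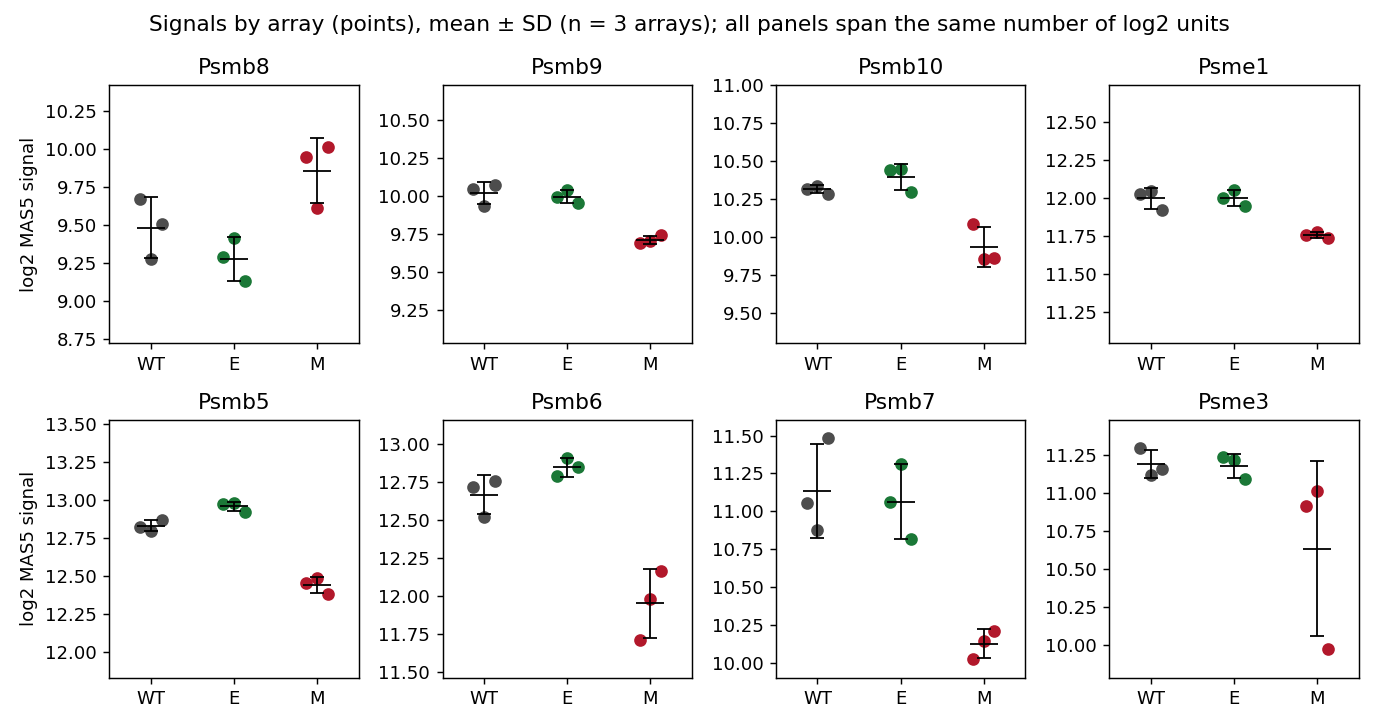
Log2 signal in every array (points) with the mean and SD of 3 arrays for WT, E and M, for 4 immunoproteasome genes above and for Psmb5, Psmb6, Psmb7 and Psme3 below; all panels span the same number of log2 units. The M arrays lie below both other groups for every gene shown except Psmb8, and M 3 stands apart for Psme3 at 9.97.

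Taking each replacement minus its constitutive counterpart within an array removes any factor that scales the whole array. It does not remove a shift that depends on brightness. The median change over all genes was 0.11 without the brightness filter and -0.34 among the 4549 brightest. Over the 9 arrays Psmb8, Psmb9 and Psmb10 averaged 9.54, 9.91 and 10.21, and Psmb5, Psmb6 and Psmb7 averaged 12.74, 12.49 and 10.78. Constitutive members with higher means tended to fall less, as given below. The part of brightness in these differences was not tested. Relative to the WT mean of the same difference, Psmb8 minus Psmb5 stood at 0.84, 0.47 and 0.98 in the M arrays and at 0.20, -0.18 and -0.02 in the WT arrays. The mean change was 0.76, which is 1.7-fold. Psmb10 minus Psmb7 stood at 0.88, 0.53 and 0.47 in M and at 0.09, 0.28 and -0.37 in WT, a mean change of 0.63. Psmb9 minus Psmb6 stood at 0.63, 0.37 and 0.23 in M and at -0.02, 0.06 and -0.04 in WT, a mean change of 0.41. M and WT did not overlap for any of the 3 pairs, and each had an exact two-sided permutation p of 0.10, the smallest that 3 arrays against 3 allow. The share of other gene pairs without overlap was not counted. Each such value shows unequal change of the pair and not which of the genes moved.

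Against E, the same 3 differences were 1.10, 0.47 and 0.62 higher in M for the Psmb8, Psmb10 and Psmb9 pairs (exact p = 0.10 each). In E against WT the differences went the other way for Psmb8 minus Psmb5, at -0.33, and for Psmb9 minus Psmb6, at -0.21, without overlap of the arrays (exact p = 0.10 each). For Psmb10 minus Psmb7 the change in E was 0.15, with overlapping arrays (exact p = 0.60).

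**Figure D3:**
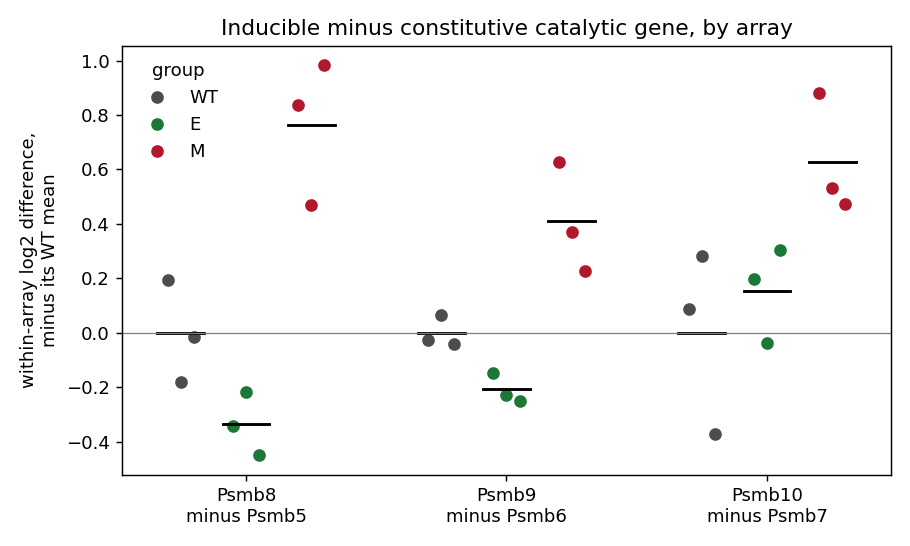
Within-array log2 difference of each immunoproteasome gene and its constitutive counterpart, minus the WT mean of that difference, with 1 point per array and a bar at the group mean for WT, E and M. The M points lie above the WT and E points for all 3 pairs, with group means of 0.76, 0.41 and 0.63 from left to right.

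The promoters of 5 of these genes are shown as the 250 bases before the annotated start, to set the immunoproteasome genes Psmb8 and Psmb9 beside constitutive subunits and the member with the largest fall. Sequences are from RefSeq on GRCm38.p6, read 5′ to 3′ on the gene's strand. Capitals mark matches to the 4 motifs searched on both strands: the interferon-stimulated response element core (GAAA, any 2 bases, GAAA), the STAT site TTCNNNGAA, the antioxidant response element core TGACNNNGC bound by the proteasome regulator Nfe2l1, and the CCAAT box.
Psmb8, chr17:34197945-34198194, plus strand: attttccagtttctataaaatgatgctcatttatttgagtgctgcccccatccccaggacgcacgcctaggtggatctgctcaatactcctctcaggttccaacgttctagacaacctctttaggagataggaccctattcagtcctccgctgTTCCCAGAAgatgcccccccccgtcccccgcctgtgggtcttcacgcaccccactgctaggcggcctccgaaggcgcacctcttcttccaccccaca
Psmb9, chr17:34187331-34187580, minus strand: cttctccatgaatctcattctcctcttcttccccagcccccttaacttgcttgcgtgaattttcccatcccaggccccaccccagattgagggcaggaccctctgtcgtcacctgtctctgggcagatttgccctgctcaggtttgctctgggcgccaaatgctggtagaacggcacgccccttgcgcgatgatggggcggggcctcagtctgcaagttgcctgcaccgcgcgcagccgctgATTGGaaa
Psmb5, chr14:54617996-54618245, minus strand: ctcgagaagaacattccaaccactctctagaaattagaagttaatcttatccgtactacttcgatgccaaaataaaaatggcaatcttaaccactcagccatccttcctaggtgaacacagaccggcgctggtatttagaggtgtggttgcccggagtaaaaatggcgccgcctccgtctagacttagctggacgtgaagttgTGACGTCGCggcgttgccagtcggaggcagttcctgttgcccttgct
Psmb6, chr11:70525107-70525356, plus strand: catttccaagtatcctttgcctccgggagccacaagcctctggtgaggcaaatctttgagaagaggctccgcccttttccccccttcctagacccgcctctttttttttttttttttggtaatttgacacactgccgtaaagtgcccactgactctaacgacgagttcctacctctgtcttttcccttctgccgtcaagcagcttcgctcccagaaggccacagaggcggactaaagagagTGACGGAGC
Psmd9, chr5:123227940-123228189, plus strand: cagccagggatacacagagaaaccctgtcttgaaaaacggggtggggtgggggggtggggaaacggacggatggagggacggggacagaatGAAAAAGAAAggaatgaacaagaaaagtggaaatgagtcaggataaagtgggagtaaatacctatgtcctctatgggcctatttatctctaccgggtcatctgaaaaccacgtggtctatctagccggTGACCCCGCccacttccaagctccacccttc
The Psmb8 window holds a STAT match and the Psmb9 window a CCAAT box, while Psmb5 and Psmb6 each hold an antioxidant response match and Psmd9 holds one of these and an interferon element match. The window of Psmb10, which is not shown, holds no match to any of the 4 motifs. The windows of Psmb9 and of Tap1, the neighbouring peptide transporter gene on the opposite strand, overlap by 275 of 300 bases.

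Matches were counted in the 300-base windows of 39 members, which have 41 windows in the table of 32851 promoters. The interferon element core was present in 12.2% of member windows, those of Psmb3, Psmd4, Psmd9, Psme1 and Psmg4, and in 3.44% of all windows. The antioxidant response core was present in 14.6% of member windows and 12.4% of all, the STAT site in 7.32% and 8.30%, and the CCAAT box in 34.1% and 37.4%. A match is a string of letters and not evidence of binding, and Psmb8, Psmb9 and Psmb10 did not hold the interferon element core in this window.

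Within the core, all 7 alpha ring genes fell in M against WT, with a median of -0.37 and a narrow range of -0.39 to -0.24. Of the 4549 brightest genes 60.8% fell, with a median of -0.34, so the size of the alpha ring fall was near that of bright genes. Psma4 averaged 12.75 ± 0.07 in M and 13.13 ± 0.06 in WT (SD, n = 3 each), a change of -0.38 (adjusted p = 2.10e-04 in limma). Psma5 had the smallest step, at -0.24 (adjusted p = 0.0455), and its M and WT arrays overlapped. Its call was lost without WT 2, WT 3, E 1, E 2, E 3, M 2 or M 3, with adjusted p between 0.0541 and 0.167. The 4 beta subunits without a proteolytic site had a median of -0.54 and 3 of them fell. Psmb3 was the largest of these, at 12.66, 12.63 and 12.80 in M, against 13.38, 13.33 and 13.51 in WT. The gap between the lowest WT and the highest M array of Psmb3 was wider than the spread in either group, and the change was -0.71 ± 0.07 (adjusted p = 4.95e-06).

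The regulatory cap fell as widely as the core. All 6 ATPase genes (Psmc1 to Psmc6) fell in M against WT, with a median of -0.46 and a range of -0.65 to -0.34. All 11 non-ATPase cap genes fell, with a median of -0.47 and a range of -0.91 to -0.31. Of the 4549 brightest genes 60.8% fell, with a median of -0.34. Psmd4, a receptor for ubiquitin chains, read 11.84, 11.98 and 11.40 in M, against 12.52, 12.60 and 12.82 in WT. Psmd13, a scaffold subunit of the lid, read 10.80, 10.82 and 10.71 in M, against 11.72, 11.65 and 11.69 in WT. M and WT did not overlap for either gene, and both fell by 0.91 on the log2 scale (adjusted p = 1.39e-04 for Psmd4 and 5.89e-07 for Psmd13 in limma). Psmd3, another lid subunit, read 11.07, 10.93 and 10.76 in M, against 11.77, 11.81 and 11.84 in E, and fell by 0.89 ± 0.08 (adjusted p = 2.68e-06). Smaller falls within the cap were those of Psmd14, the deubiquitinase that removes chains at the entry, at -0.34 ± 0.06 (adjusted p = 5.38e-04), and of Psmd2, a docking subunit for ubiquitin and shuttle proteins, at -0.57 ± 0.06 (adjusted p = 1.45e-05), both in M against WT. With the mean of all probe sets, dim ones included, the calls of Psmd4 and Psmd2 against WT were lost (-0.42, adjusted p = 0.312, and -0.55, adjusted p = 0.272, in limma). The other Psmd4 probe set over the brightness threshold changed by -0.65.

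The 7 assembly factors had a median of -0.65 (log2) in M against WT, and all fell, where 60.8% of the 4549 brightest genes fell with a median of -0.34. Psmd9, a chaperone of the ATPase ring, had the largest fall of all members. It read 11.59, 11.73 and 11.67 in WT, 11.53, 11.56 and 11.53 in E, and 10.58, 10.59 and 10.26 in M. WT and E formed a tight set above all M arrays, and the M level was 0.439 of the WT level (-1.19 ± 0.09, adjusted p = 9.19e-07 in limma). Psmg3, a chaperone of the alpha ring, read 11.10, 11.00 and 11.12 in WT, 11.11, 11.13 and 11.62 in E, and 10.05, 10.43 and 10.38 in M. It fell by 0.79 ± 0.14 against WT (adjusted p = 4.85e-04) and by 1.00 ± 0.14 against E (adjusted p = 7.56e-05), with E 3 apart from the other E arrays. Psmg1 and Psmg2 act as a pair in building the alpha ring, and in M against WT they fell by 0.41 ± 0.07 (adjusted p = 3.36e-04) and 0.65 ± 0.08 (adjusted p = 1.98e-05).

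Among the other activators and the inhibitor, Psmf1, which inhibits the core in vitro, read 10.82, 10.99 and 10.91 in WT, 10.76, 10.70 and 10.70 in E, and 10.08, 10.25 and 9.73 in M. It was 1 of 2 members, with Psmd9, whose E arrays all lay below the WT arrays, although E with WT did not pass the test (-0.19 ± 0.12, adjusted p = 0.520 in limma), and it fell by 0.89 ± 0.12 in M against WT (adjusted p = 4.94e-05). Psme4, a nuclear activator, read 12.30, 12.36 and 12.33 in WT, 12.28, 12.17 and 12.30 in E, and 12.01, 12.10 and 11.80 in M. M lay below both other groups, at -0.36 ± 0.08 against WT (adjusted p = 0.00200), but this rests on its brightest probe set: the mean of its probe sets over the brightness threshold changed by 0.03 (adjusted p = 0.873). Psme3, another nuclear activator, read 11.30, 11.12 and 11.16 in WT, 11.23, 11.21 and 11.09 in E, and 10.92, 11.01 and 9.97 in M. Its change was -0.56 ± 0.22 (adjusted p = 0.0374) with the low array M 3 and -0.23 (adjusted p = 0.0141) without it. Its call was lost when any single WT array or E array was dropped, with adjusted p between 0.0515 and 0.107.

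In the early phase few proteasome genes passed the test. Of the 46 tested members 1 rose and 0 fell in E against WT, where 0.462% of all genes rose and 1.65% fell (limma), and 8 members were higher and 0 lower at an unadjusted p under 0.05, where 6.36% of all genes were higher and 7.69% lower. The median member change was 0.06, beside 0.01 over all genes, and 35 of 46 were above 0, where 4688 of all 9097 genes were. That count holds for the probe sets used: of the 32 other member probe sets over the brightness threshold, 15 were higher in E. The E arrays lay wholly above the WT arrays for 17 members and wholly below for 2, where 15% and 14.7% of all genes did so. By role the medians were 0.13 for the alpha ring, 0.12 for the other beta subunits, 0.13 for the catalytic subunits, 0.10 for the assembly factors, 0.04 for the non-ATPase cap genes, 0.01 for the ATPases, -0.01 for the immunoproteasome and -0.08 for the activators and the inhibitor. With quantile normalization the constitutive median was 0.05, beside 0.01 over all genes.

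Psmg1 was the 1 member called in E. It read 12.16, 11.97 and 12.11 in WT, 12.33, 12.45 and 12.42 in E, and 11.61, 11.73 and 11.65 in M. No group overlapped another, with E highest and M lowest. The E change was 0.32 ± 0.07 (adjusted p = 0.0441 in limma), but that call was lost without any 1 array other than M 3, with adjusted p between 0.0521 and 0.188. Psma4, an alpha ring gene, came next in significance, at 0.25 ± 0.06 in E against WT (adjusted p = 0.0597). Psma4, Psma7, Psmb4 and Psmd3 passed the test when M 3 was left out of the fit, which brought the count of called members to 5. Such counts also moved widely over all genes tested. There 42 genes were called higher in E against WT with every array kept, and 13 to 283 with any 1 array left out. The count of 5 is thus not by itself a sign of a change particular to the members.

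Between the leukemic phases the proteasome genes were again lower in M. M with E and M with WT share the M arrays, so each is given by its own values. Against E, 44 of 46 members fell and 1, Psmb8, rose, where 43.9% of all genes fell and 26.1% rose (limma). The M arrays lay wholly below the E arrays for 44 members and wholly above for 1, where 45.9% and 27.2% of all genes did so. The median member change was -0.55, beside -0.19 over all genes. Among the 4549 brightest genes 44 of 44 members fell, where 60.3% of those genes did, with medians of -0.55 for members and -0.34 for those genes. Psmb8 and Psma8, which did not fall against E, are too dim to be among them.

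**Figure D4:**
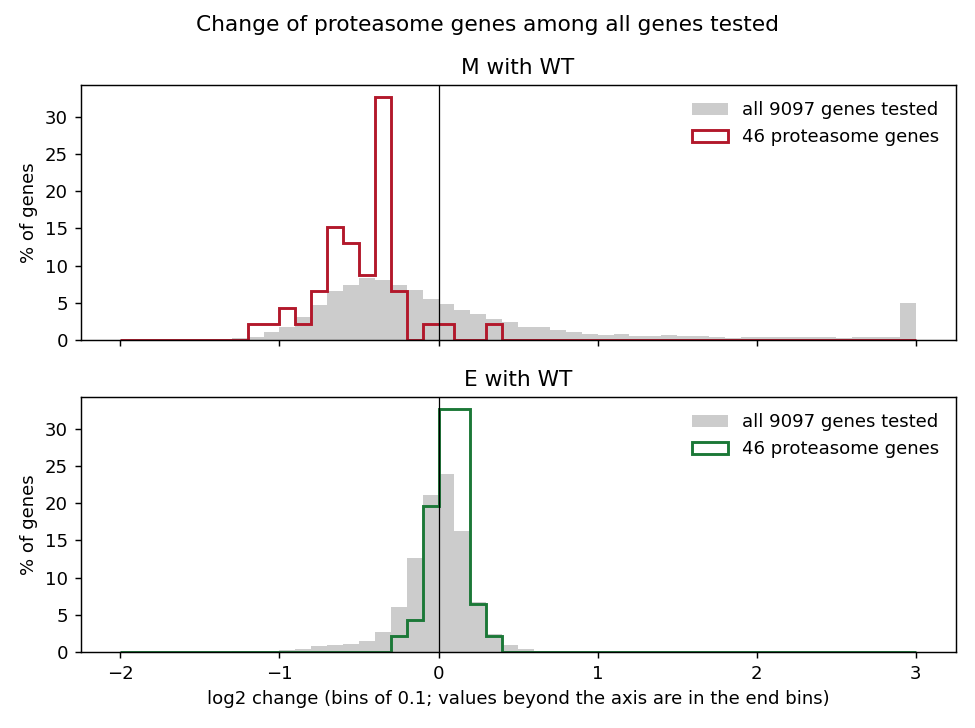
Share of genes (%) by log2 change for the 46 tested proteasome genes (outlined) and all 9097 genes tested (grey), in M with WT above and E with WT below. In M with WT the members gather on the side below 0, with a median of -0.44 beside -0.19 for all genes, and in E with WT both distributions centre near 0.

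By role, the medians in M against E were -0.90 (log2) for the catalytic subunits, -0.75 for the assembly factors, -0.63 for the other beta subunits, -0.55 for the non-ATPase cap genes and for the activators and inhibitor, -0.49 for the alpha ring, -0.47 for the ATPases and -0.26 for the immunoproteasome. The 5 largest falls against E were those of Psmd9 at -1.06, Psmd4 at -0.94, Psmb7 at -0.94, Psmd13 at -0.93 and Psmg3, given above. Psmb4, which was not called against WT, fell by 0.28 ± 0.07 against E (adjusted p = 0.00594 in limma), and that call was lost with quantile normalization (-0.13, adjusted p = 0.154). It averaged 13.69 ± 0.08 in M and 13.96 ± 0.11 in E (SD, n = 3 each).

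The members varied more among M arrays than among the others. The median SD of a member over 3 arrays was 0.06 among WT arrays, 0.06 among E arrays and 0.11 among M arrays. M 3 was the lowest of the M arrays for 31 of 46 members. Leaving out any 1 of the 9 arrays left 41 to 43 members lower in M against WT, and 41 of the 43 were called lower each time. Members with higher mean levels tended to have smaller falls, with r = 0.33 and rho = 0.62 over the 42 tested constitutive genes, given as a description since the genes share the 9 arrays.

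Further probe sets of the same genes gave a second reading. Of 32 other probe sets over the brightness threshold, 28 had a lower mean in M than in WT and 27 a lower mean in M than in E. Of 22 probe sets under the threshold, 6 were lower in M than in WT. In E, 15 of the 32 had a higher mean than in WT. For Psma6 the next brightest probe set changed by -0.30 in M against WT and a dim one at 8.23 by 0.39. When all probe sets of a gene were averaged, dim ones included, 32 members fell in M against WT, and Psma1, Psma6 and Psme4 turned to 0.16, 0.09 and 0.23.

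The constitutive genes stayed below 0 at their median in M under each of 3 other scalings. Their median in M against WT was -0.40 with quantile normalization, -1.13 with median centring and -1.50 with spike-in scaling, while the median over all genes was -0.28, -0.82 and -1.19. Of the 43 members called lower against WT, 40 were called lower under all 3 scalings, and of the 44 against E, 38 were.

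Of 14 tested genes that work with the proteasome, 9 fell and 3 rose in M against WT (limma), with a median of -0.38. These shares lie near those of other bright genes, given above, of which 60.8% fell with a median of -0.34. The 4 with the smallest p were the cap-bound deubiquitinases Usp14 (-0.77 ± 0.08, adjusted p = 1.10e-05) and Uchl5 (-0.50 ± 0.07, adjusted p = 4.60e-05), the core maturation factor Pomp (-0.51 ± 0.06, adjusted p = 1.92e-05) and the shuttle protein Rad23b (-0.67 ± 0.09, adjusted p = 6.98e-05). Usp14 read 11.15, 11.48 and 11.20 in M, against 12.06, 12.06 and 12.04 in WT, without overlap. The calls of Usp14 and Uchl5 were lost with the mean of all their probe sets (-0.10, adjusted p = 0.441, and -0.71, adjusted p = 0.265). Among those that rose on the deposited scale, and named after their values were seen, were Nfe2l1, the transcription factor that induces proteasome genes when proteasome activity drops, and Zfand5, a proteasome-binding zinc finger protein. Nfe2l1 read 9.72, 9.64 and 9.62 in M, against 9.04, 9.06 and 9.30 in WT (0.53 ± 0.10, adjusted p = 6.72e-04), and Zfand5 changed by 0.54 ± 0.10 (adjusted p = 5.64e-04). Both had M arrays wholly above WT, and both changed sign when arrays were centred on the median (-0.10 and -0.08) or scaled on spike-ins (-0.47 and -0.46).

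Of 7 tested genes of ubiquitin activation, conjugation and unfolding, 6 fell and 1 rose in M against WT, with a median of -0.29. Among all 9097 genes 43.5% fell and 25.3% rose. Among the 4549 brightest 60.8% fell, with a median of -0.34. The 4 with the smallest p were Ufd1 (-0.63, adjusted p = 2.02e-05 in limma) and Nploc4 (-0.64, adjusted p = 9.25e-04), cofactors of the unfoldase Vcp, the conjugating enzyme Ube2k (-0.43, adjusted p = 1.62e-04) and the ligase Ube3a (-0.29, adjusted p = 0.00361). With the mean of all probe sets the calls of Ube2k and Ube3a were lost (-0.14, adjusted p = 0.501, and -0.23, adjusted p = 0.219), and that of Ube3a also with quantile normalization (adjusted p = 0.0698). In E against WT 0 of the 14 partners and 0 of these 7 genes were called.

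The users of proteasome products, genes of MHC class I presentation, took another course. Of 11 tested, 5 rose and 2 fell in M against WT on the deposited scale, with a median of 0.16. Among all 9097 genes 25.3% rose and 43.5% fell, with a median of -0.19. The 4 with the smallest p were Tapbp, which loads peptides (0.79 ± 0.09, adjusted p = 1.51e-05 in limma), the class I light chain B2m (0.42 ± 0.05, adjusted p = 3.27e-05) and the heavy chains H2-K1 (0.49 ± 0.06, adjusted p = 4.34e-05) and H2-D1 (0.44 ± 0.06, adjusted p = 5.14e-05). Scaled on spike-ins 0 of the 11 rose and 9 fell, and centred on the median 0 rose and 8 fell, so these directions hold on the deposited scale and with quantile normalization, where 6 rose and 3 fell. The peptide transporter genes, named for their place beside Psmb8 and Psmb9 and after their values were seen, were not among those that rose. Tap1, whose promoter window overlaps that of Psmb9, changed by -0.11 ± 0.14 (adjusted p = 0.491), and Tap2 fell by 0.51 ± 0.08 (adjusted p = 2.71e-04).

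Interferon response genes were read over all 16 on the array, since only 9 passed the brightness filter and Gbp2 and Iigp1 passed it only through the M arrays. M arrays lay wholly above WT for 10 of the 16 and wholly below for 0. Among the 9097 genes over the filter 26.5% lay wholly above and 45.5% wholly below. The shares without the filter were not counted, and more genes were called higher without it (4032, beside 2306). Irf1, a transcription factor known to drive immunoproteasome genes, read 10.14, 10.16 and 10.10 in M, against 7.47, 7.82 and 7.82 in WT (2.43 ± 0.16, adjusted p = 2.06e-07 in limma). Gbp3, an interferon-induced GTPase, averaged 8.59 ± 0.11 in M and 7.29 ± 0.52 in WT (SD, n = 3 each) and rose by 1.30 (adjusted p = 5.24e-04). Its relatives Gbp2 and Iigp1 averaged 9.44 and 9.62 in M, against 6.17 and 6.32 in WT, where both lie under the threshold. The median of the 9 tested was 1.30 on the deposited scale, with 6 called higher and 0 lower. By the same rule 25.3% of all 9097 genes were called higher and 43.5% lower. The median of the 9 was 0.67 with centring (5 higher, 3 lower) and 0.30 with spike-in scaling (4 higher, 3 lower). Gbp2 and Iigp1 are 2 of the 6 and entered the 9 through their high M values. The filter thus raised this count and the median of 1.30, which are no support for a rise of the list. The call of Gbp3 was not kept in every alternative (adjusted p up to 0.308 in limma), while that of Irf1 was (up to 3.14e-06). In E against WT 0 of the 9 tested interferon genes and 0 of the 11 class I genes were called.

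**Figure D5:**
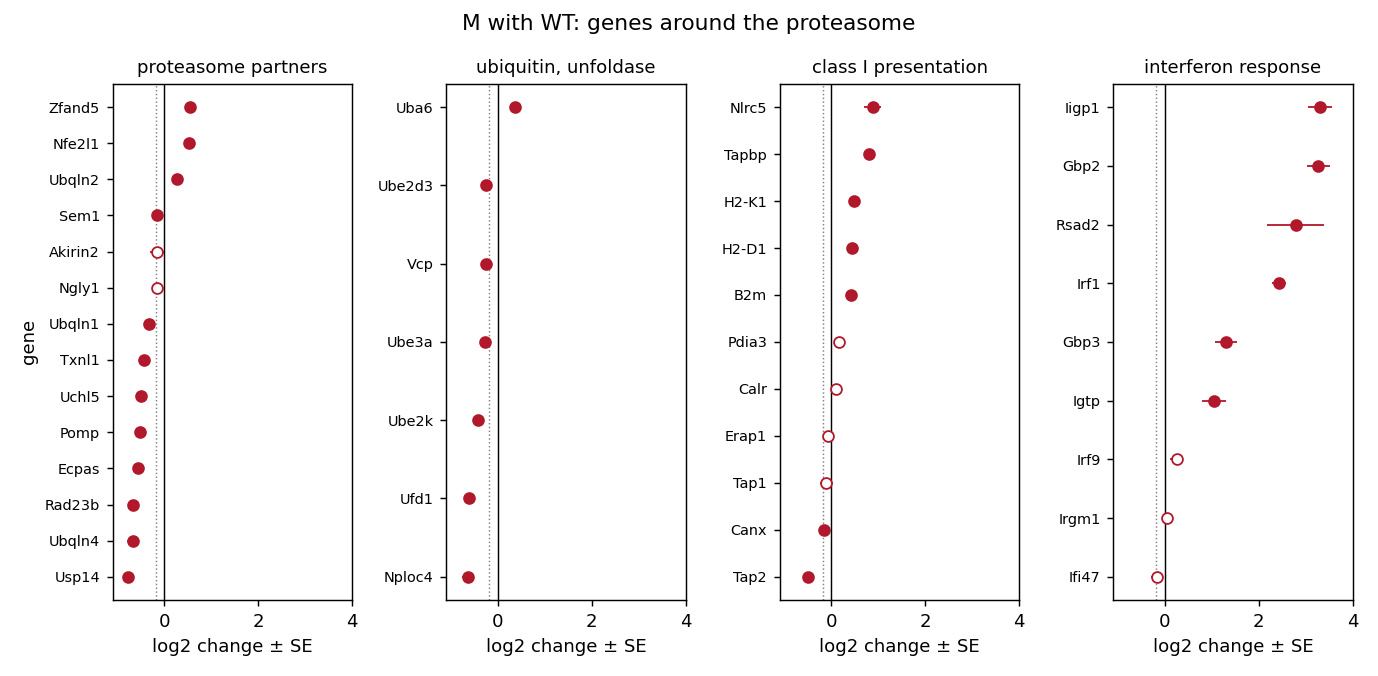
Log2 change with its SE (limma) in M with WT for the tested genes of 4 lists, 1 list to a panel; filled points passed an adjusted p under 0.05 and the dotted line is the median over all genes tested. Most partner and ubiquitin genes lie below 0, class I genes lie on both sides, and interferon response genes reach 3.30 for Iigp1, which with Gbp2 passed the brightness filter only through the M arrays.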

How the data were processed

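Total RNA of 9 sorted stromal samples, 3 each of WT, E and M, was measured on 1-colour Affymetrix arrays. The authors deposited log2 signals made with MAS5, per the submitters' processing notes, whose version is not given in the sources used here. An array gives no count of molecules, so the number of arrays limits the precision, and p-values measure the spread between these samples.

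Of 45101 probe sets, 34958 with a single symbol in the array's annotation were used, 932 with several and 9211 not listed were left out, and the probe set of highest mean stood for its gene. The brighter part, 9097 genes whose mean reached the median over genes (log2 6.83), was fitted with limma 3.58.1 in R 4.3.3 over all 9 arrays, with group means, an intensity trend and Benjamini-Hochberg adjustment, and called at an adjusted p under 0.05. Standard errors come from that model. The code was tested on simulated data.

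Members, gene lists and comparisons were chosen with earlier results of these data known. Array values are given for the immunoproteasome, the catalytic genes, the other activators and the inhibitor, and for up to 5 further members with the largest called rise and fall in each comparison. Other lists are named for the 4 genes with the smallest p. Genes named after their values were seen are marked as such.

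Same-numbered arrays of different groups did not deviate together: the correlation of their deviations was -0.10 to 0.08 over 9 pairs, so the replicate number was not used as a block. The labels and headers name no batch. The alternatives tried were quantile normalization, centring on the array median, scaling on 24 poly-A spike-in probe sets (those of Trp, at background, were left out), a pseudocount of 64, no brightness filter, limma without the trend, means of probe sets, the replicate block, and leaving out each array. Promoter windows are from RefSeq on GRCm38.p6. A comparison of protein sequences was planned and is not reported here.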

Additional observations from a re-analysis of the deposited data

Results flagged for a closer look

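Psmg1, an assembly chaperone of the alpha ring, moved in opposite directions in the 2 leukemic phases. Against WT it was called higher in E (0.32, adjusted p = 0.0441 in limma) and lower in M (-0.41, adjusted p = 3.36e-04), and the difference of M and E was itself tested, at -0.73 (adjusted p = 3.87e-06). The M value and the M with E value kept their calls in all 19 alternatives, while the E value was called in 5 of them. Groups of 3 arrays are too small to be screened for single outlying samples.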

How the results depend on the processing

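Most members were lower in M under each scaling, by amounts that differed: 40 of the 43 members lower in M against WT and 38 of the 44 against E were called lower under quantile normalization, median centring and spike-in scaling, and 30 and 28 of them under all 19 alternatives. Centring and spike-in scaling lower every gene in M, so they could hardly undo a call of lower. For M with WT the constitutive median was -0.40, -1.13 and -1.50 under these scalings and -0.42 with the mean of all probe sets, and the immunoproteasome median was -0.90 with centring and -1.28 with spike-ins. For M with E the constitutive median was -0.43, -1.32, -1.59 and -0.48, and the immunoproteasome median -1.03 and -1.30. For E with WT the constitutive median was 0.05, 0.21, 0.11 and 0.04 (0.06 to 0.10 leaving out an array), and the immunoproteasome median 0.12 with centring. The count of members higher in M against WT was 0 with quantile normalization, with centring and with spike-ins, and 0 to 1 leaving out an array. Against E it was 0 with centring and with spike-ins, and 3 with the mean of all probe sets. Among the 4549 brightest genes it was 0 in both, but Psmb8 is too dim to be among them, so this 0 does not bear on its call. In E against WT the count was 3 with centring, 0 to 5 leaving out an array, and 0 with quantile normalization, spike-ins, no filter, no trend, the mean of all probe sets and the replicate block. The replicate block left 42 members lower in M against WT and 44 against E, and apart from Psmg1 in E against WT changed the call of 1 member, Psma5 in M against WT (adjusted p = 0.0786). Quantile normalization, centring and spike-ins turned Psma8 to -0.42, -0.57 and -0.94 against WT and to -0.52, -0.75 and -1.02 against E. Centring and spike-ins turned Psmb8 to -0.25 and -0.63 against WT and to -0.18 and -0.45 against E. Against WT, centring and spike-ins turned B2m to -0.21 and -0.59, H2-K1 to -0.14 and -0.51, H2-D1 to -0.18 and -0.56, Nfe2l1 to -0.10 and -0.47 and Zfand5 to -0.08 and -0.46, and spike-ins turned Tapbp to -0.21. Against E the values were -0.33 and -0.60 for B2m, -0.51 and -0.78 for H2-K1, -0.41 and -0.68 for H2-D1, -0.41 and -0.69 for Nfe2l1, -0.12 and -0.40 for Zfand5, and -0.26 with spike-ins for Tapbp. The mean of all probe sets turned Psma1 to 0.16, Psma6 to 0.09 and Psme4 to 0.23 against WT, and against E it turned Psma1 to 0.37, Psma6 to 0.01, Psmc1 to 0.11, Psmd11 to 0.02, Psmd2 to 0.21, Psme4 to 0.56 and Ube2k to 0.18. With the mean of probe sets over the threshold, which like the 4549 brightest genes was added after seeing the data, Psme4 was 0.03 against WT and 0.08 against E. The cause of these turns was not tested. Over all genes, the 42 higher in E against WT became 131 with centring, 25 with quantile normalization, 22 with the mean of all probe sets, 27 with the replicate block, 24 among the brightest and 13 to 283 leaving out an array, and the 150 lower became 93, 77 and 61 with quantile normalization, the mean of all probe sets and the brightest, and 82 to 553. With centring and spike-ins, 1262 and 972 genes were higher and 6639 and 7204 lower in M against WT, beside 2306 and 3953, and 1221 and 1023 higher and 6948 and 7199 lower in M against E, beside 2376 and 3992. Without the filter 4032 and 4382 were higher, with medians over all genes of 0.11 and 0.19 in place of -0.19, and among the brightest 698 and 742. The arrays give no absolute level, so which scaling is nearest to RNA per cell is not known here.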
